A study of Mus musculus with 27 samples.

Results

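The genes of the proteasome were followed across 7 stages of the reproductive cycle in mouse liver. Members were all genes whose mouse symbol begins with Psm, one of the letters a to f and a digit, leaving out symbols with -ps. The pattern matched 46 of the 51826 genes in the deposited tables. They were 7 genes of the alpha ring, 7 of the constitutive beta ring, 3 immunoproteasome subunits, 6 ATPases and 11 non-ATPase subunits of the regulatory particle, 3 assembly chaperones of that particle, 5 genes of activators, 1 inhibitor, 2 core subunits restricted to other tissues, and Psmc3ip, which fits the pattern but encodes a recombination factor and not a subunit. A further 4 pseudogenes with -ps in the symbol were left out. Of the 46 members, 45 passed the filter on low counts. The other, Psmb11, the beta subunit of the thymus, had a count of 0 in all 27 libraries, which allows up to 3 counts per library. The 10 members on chromosome 11 made it the chromosome with the most.

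The proteasome degrades proteins that carry ubiquitin chains. Its barrel-shaped core has outer rings of alpha subunits, which gate the entrance, and inner rings of beta subunits, of which Psmb5, Psmb6 and Psmb7 cut peptide bonds; a regulatory particle of ATPases and non-ATPase subunits recognises, unfolds and feeds in the substrate. Interferons induce Psmb8, Psmb9 and Psmb10, which take the places of Psmb5, Psmb6 and Psmb7 in newly made immunoproteasomes and alter the peptides that are offered on MHC class I molecules. Leukocytes carry much immunoproteasome, and hepatocytes mainly the constitutive form unless they are stimulated. The transcription factors Nfe2l1 and Nfe2l2 can raise subunit genes through antioxidant response elements.

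All animals were wildtype BALB/c mice, an inbred strain, and each gave 1 whole-liver library sequenced in bulk. The groups were nulliparous mice, never bred (NUL, n = 4), mothers at lactation day 10 (LAC, n = 3), mothers at days 2, 4, 6 and 8 after their pups were removed (ID2, n = 3; ID4, n = 4; ID6, n = 6; ID8, n = 3), and mothers 4 weeks after weaning (REG, n = 4). Mothers were bred at 10 to 12 weeks of age and nursed litters of evened size, and weaning fell on lactation days 10 to 14. Weaning was forced, so the ID groups describe abrupt and not gradual removal of the pups, and the age at collection is described only as matched.

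Estimated counts summed to between 41120650 and 75664540 per library, and members together held 0.294% to 0.361% of them. Hepatocyte markers (Alb, Apoa1 and 6 others) were present in every stage, with summed TPM (a transcript abundance scaled for gene length) of 67600 to 151000. One ID2 library (ID2_31) carried pancreas acinar transcripts at a summed TPM of 2960, ID4_15 at 197 and ID8_98b at 71.4, against 8.39 to 31.2 in all other libraries. Title numbers under 200 occurred in 2 of 3 ID2, 2 of 4 ID4 and all 3 ID8 animals and in no other group, and the labels do not explain them. Number range and stage therefore cannot be told apart at ID8. Of 10 clock genes, 4 were called at ID2 against LAC (16.1% of all genes were called there), 5 at ID2 against NUL (3.24%), 4 at ID8 against ID6 (4.12%) and 0 at LAC against NUL (11.2%, edgeR), with 0 to 2 in the other comparisons; the hour of collection is not given in the sources used here.

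Promoter sequences show which members carry letters bound by the factors named above. RefSeq (GRCm38.p6) gave 42 promoters of 39 members, read here over the 250 bases before each start on both strands. The core of the antioxidant response element, TGACNNNGC, was in 5 of 42 member promoters (11.9%) and in 10.2% of all 32851 promoters of the same length. The 5 are printed 5′ to 3′ on the strand of the gene, with the match in capitals. In Psmc6 and Psmd12 the match is on the opposite strand. None of these 5 windows overlaps an annotated exon of a Psm gene, and exons of other genes were not checked. The Psmd9 window lies inside a longer annotated span of that gene.
Psmb5, chr14:54618024-54618053, minus strand: acgtgaagttgTGACGTCGCggcgttgcca
Psmb6, chr11:70525327-70525356, plus strand: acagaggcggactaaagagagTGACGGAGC
Psmc6, chr14:45329586-45329615, plus strand: gccagccagtaGCTAAGTCAggcattgctc
Psmd12, chr11:107479278-107479307, plus strand: tctGCTGTGTCAcatttgcccccctcagac
Psmd9, chr5:123228148-123228177, plus strand: tatctagccggTGACCCCGCccacttccaa
Psmb8, the immunoproteasome gene with the smallest joint p below, held the gamma-activated site TTCNNNGAA, the letters bound by STAT dimers after interferon signals. It was the only one of the 42 member promoters to do so (2.38%, against 7.02% of all promoters), and the window lies in an exon of a longer annotated Psmb8 transcript.
Psmb8, chr17:34198087-34198116, plus strand: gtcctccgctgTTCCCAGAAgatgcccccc
The core of the interferon-stimulated element, GAAA repeated with NN between, was in 3 member promoters (7.14%, against 2.98% of all), those of Psmb3, Psmd4 and Psmd9. CCAAT occurred in 15 (35.7%, against 33.8%), Psmb9 among them. The nuclear respiratory factor core, GCGCA and GCGC with N between, occurred in 6 (14.3%, against 3.74%), those of Psma2, Psma3, Psma4, Psmc4, Psmc5 and Psmd14. A match describes letters in the window and shows no binding.

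Psmb9 and Psmb8 are neighbours in the class II region of the major histocompatibility complex. In the GRCm38 annotation Psmb9 spans chromosome 17, 34181987 to 34187764 (minus strand), and Psmb8 34197721 to 34201454 (plus strand). Tap1, one chain of the transporter that moves peptides to MHC class I molecules, lies between them and overlaps the start of Psmb9 on the other strand, at 34187553 to 34197225. Counts there cannot be assigned by strand, since the use of strand is not given in the sources used here, and Psmb9 counts were not whole in 15 of 27 libraries. Reads were also divided between genes for Psmb7 (27 libraries), Psma3, Psma5 and Psmb5 (26 each), Psmd13 and Psmc3ip (24 each) and Psmd1 (14), so the levels of these members depend on that division.

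All genes of the alpha ring, the constitutive beta ring and the regulatory particle were detected in all stages. On the TPM scale, averaged over all 27 libraries, the alpha ring ran from 32.8 (Psma2) to 174 (Psma7) and the beta ring from 80.8 (Psmb2) to 279 (Psmb6, the caspase-like site). The ATPases, which unfold the substrate, ran from 61.0 (Psmc6) to 115 (Psmc1). The non-ATPase subunits ran from 37.5 TPM (Psmd14, the deubiquitinase of the lid) to 97.9 (Psmd4, a ubiquitin receptor). Immunoproteasome genes lay below the genes they replace, at 21.2 TPM for Psmb9 against 279 for Psmb6, 66.4 for Psmb8 against 109 for Psmb5, and 68.2 for Psmb10 against 165 for Psmb7. Psme2b, a close relative of Psme2, was the lowest of the 40 constitutive subunit, chaperone, activator and inhibitor genes, at 8.64 TPM. The germline core subunit Psma8 (0.935 TPM) and Psmc3ip (0.481 TPM) were lower still.

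**Figure D1:**
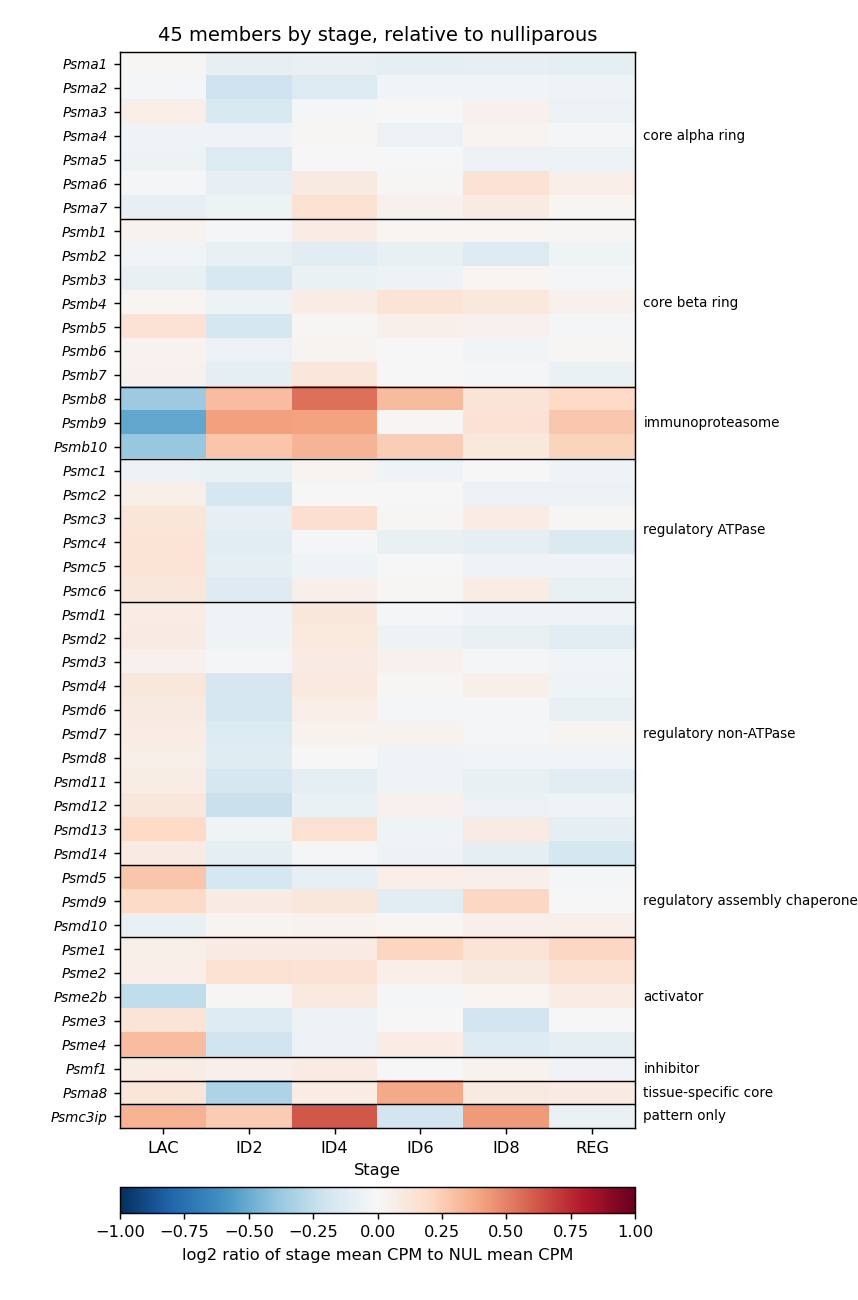
Stage mean CPM (the count scaled to a common total after TMM normalisation) of the 45 members tested, as the log2 ratio to the NUL mean, by role (rows) and stage (columns). Red is higher and blue lower than NUL; the 3 immunoproteasome rows are blue in LAC and pale to red at the later stages, while most other rows stay pale.

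Apart from the immunoproteasome, most members had narrower ranges over the cycle than genes in general. The range of stage means, on the log2 CPM scale, had a median of 0.23 over 45 members, 0.22 over the 42 without immunoproteasome genes and 0.52 over 16330 genes with counts in every library. The spread between animals of a stage was also narrow, with a median SD of 0.125 (log2) over members and 0.218 over all genes. Neither comparison was matched for expression level, so neither sets members apart from other genes of like level. The 3 immunoproteasome genes had ranges of 0.71 (Psmb10), 0.91 (Psmb8) and 0.92 (Psmb9), as the heat map of stage means shows. On CPM, ID2 was the lowest stage for 25 of 45 members and LAC the highest for 19. On TPM, ID2 was again the lowest for 25, but LAC was the highest for 8 and ID6 for 22.

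A joint test over the 7 stages called 5 of 45 members at an adjusted p under 0.05 (edgeR quasi-likelihood F test, Benjamini-Hochberg over 16428 genes), where 27% of all genes were called. They were the immunoproteasome genes Psmb8 (adjusted p = 0.000843, edgeR), Psmb9 (0.00775) and Psmb10 (0.0181), the activator Psme4 (0.00178) and the base chaperone Psmd5 (0.0132). None of the 14 alpha and beta ring genes, the 6 ATPases or the 11 non-ATPases was called, and the nearest of them was Psmd12 (0.0885). Without LAC_200 only Psmb8, Psmb9 and Psme4 were called, without LAC_213 Psmd5 was lost, and without LAC_240 Psmb10 was lost and Psmd12 gained. Without ID8_14 Psmd9 was called as well. Limma on log2(TPM + 1) called 10 members, which kept the immunoproteasome genes and Psme4 but not Psmd5, and added Psma2, Psma7, Psmb3, Psmd7, Psmd12 and Psme1. The 27% of all genes is that of the edgeR fit, so these 10 cannot be set against it.

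The immunoproteasome genes were lowest in lactation and highest at 2 or 4 days after weaning. Psmb9, which replaces Psmb6, stood at 14.5, 14.9, 18.4 and 23.0 CPM in the 4 NUL livers, 11.2, 11.5 and 14.5 in LAC, 21.3, 24.4 and 24.8 at ID2 and 22.3, 22.6, 23.4 and 25.2 at ID4. It ranged over 11.9 to 25.7 (median 17.3) CPM at ID6 and stood at 17.9, 19.7 and 21.2 at ID8 and 17.5, 17.7, 24.9 and 25.4 at REG. Every ID2, ID4, ID8 and REG liver lay above every LAC liver, and at ID6 a single animal (ID6_209, 11.9) fell within the LAC range. NUL and LAC met at 14.5 CPM.

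Psmb8, which replaces Psmb5, stood at 39.3, 39.8, 40.9 and 49.9 CPM in NUL, 29.7, 33.9 and 35.7 in LAC, 48.4, 50.3 and 59.2 at ID2 and 57.5, 62.2, 63.5 and 65.1 at ID4. It then ranged over 43.8 to 64.5 (median 51.4) CPM at ID6, with 44.4, 45.6 and 49.0 at ID8 and 39.4, 40.5, 55.2 and 59.8 at REG. The 3 LAC livers were the lowest of all 27, and the ID4 livers lay above all NUL, LAC and ID8 livers. Psmb10, which replaces Psmb7, stood at 29.9, 33.4, 37.6 and 49.4 CPM in NUL, 26.9, 29.0 and 30.9 in LAC, 37.6, 46.0 and 52.8 at ID2 and 38.2, 49.9, 50.6 and 51.1 at ID4. Later it ranged over 36.1 to 52.2 (median 44.1) CPM at ID6, with 37.3, 40.5 and 43.3 at ID8 and 35.5, 40.0, 44.1 and 55.9 at REG. LAC and ID2 did not overlap for Psmb10, but a NUL animal (NUL_226, 29.9) fell within the LAC range.

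**Figure D2:**
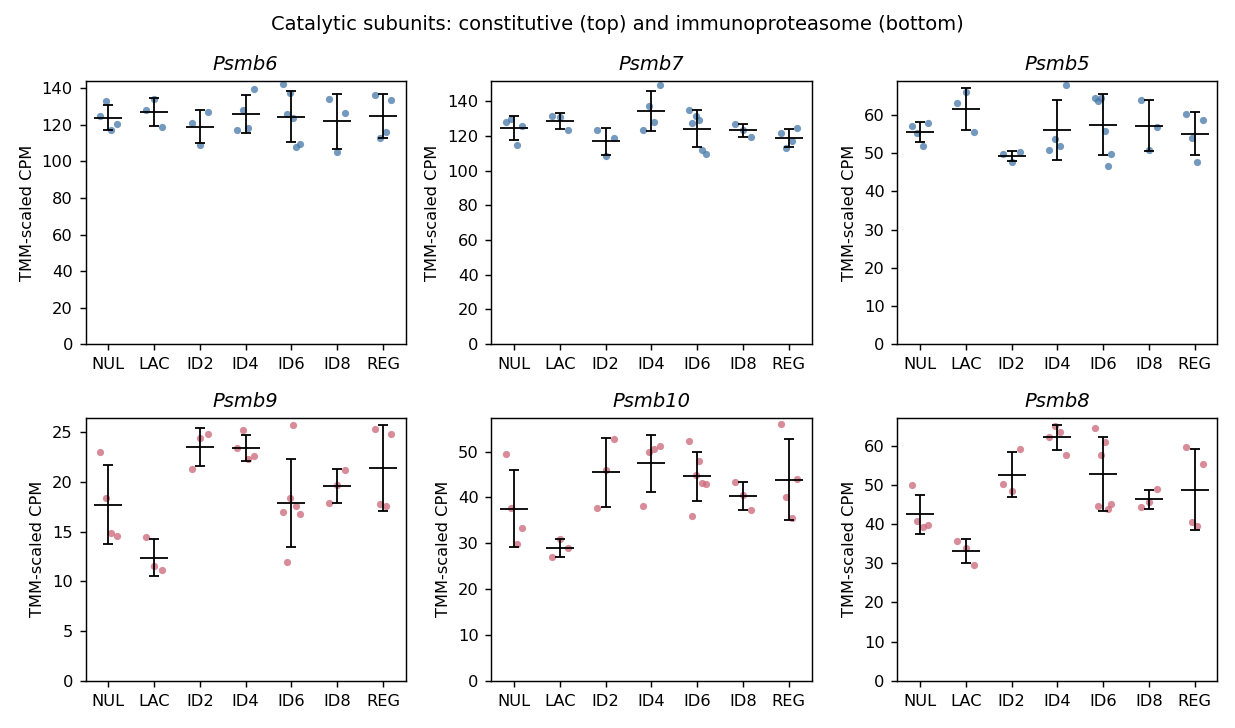
TMM-scaled CPM of the 3 constitutive catalytic subunits (top) and the immunoproteasome subunits that replace them (bottom), 1 point per animal, with the stage mean and SD in black. Psmb9, Psmb10 and Psmb8 are lowest in LAC and rise at ID2, while all stages of Psmb6 overlap.

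The comparison of ID2 with LAC asked what differed between lactation and 2 days after weaning. LAC livers were from lactation day 10 and weaning fell on days 10 to 14. Time since birth therefore differed as well and cannot be told apart from weaning. On the log2 scale, Psmb9 rose by 0.92 (SE 0.20, edgeR adjusted p = 0.00277), Psmb8 by 0.67 (SE 0.15, adjusted p = 0.0038) and Psmb10 by 0.65 (SE 0.17, adjusted p = 0.00966). These were the only members called higher of 45, where 8.48% of all genes were called higher and 16.1% in either direction. The calls of Psmb8 and Psmb9 held in all 6 fits without 1 animal and in 8 other settings. Psmb10 lost its call without ID2_39 (edgeR adjusted p = 0.06) and with the number range in the model (0.0605), where its log2 fold change was 0.63. In bulk tissue, fewer cells of a type and less RNA per cell cannot be told apart, so these values are levels of the whole liver.

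Against NUL, the lower level in LAC was not called for any of the 3 in the edgeR fit. The log2 fold change was -0.52 for Psmb9 (SE 0.19, edgeR adjusted p = 0.0772), -0.36 for Psmb8 (SE 0.14, 0.107) and -0.38 for Psmb10 (SE 0.16, 0.134). Other settings crossed the threshold for different genes. DESeq2, the model with sequencing runs and the fit without NUL_227 called Psmb9 lower, and limma on log2(TPM + 1) called Psmb8 and Psmb10 lower. At ID4 against NUL, Psmb8 rose by 0.55 on the log2 scale (SE 0.13, edgeR adjusted p = 0.0142). It was the only member called of 45, where 4.25% of all genes were called and 2.64% were called higher. The call was lost without NUL_226 (edgeR adjusted p = 0.0534), without NUL_227 (0.0506) and with the number range in the model (0.076), and held without ID4_15. Psmb9 (0.40, edgeR adjusted p = 0.196) and Psmb10 (0.34, 0.202) were not called there, though Psmb10 was without NUL_220. ID2 against LAC and LAC against NUL share the LAC livers, so the results are not independent of each other.

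Because TPM is scaled for length, the 6 catalytic genes could be set side by side in each liver. Psmb8, Psmb9 and Psmb10 together held 15.2, 15.2 and 15.6% of the catalytic TPM in LAC, a lower share than in any other liver. The share was 18.7, 19.2, 19.5 and 23.6% in NUL, 21.8, 25.7 and 25.7% at ID2 and 22.2, 24.4, 25.1 and 27% at ID4. It was 22.7 ± 2.22% (SD, n = 6) at ID6, with a lowest value of 18.6%, then 21.5 ± 1.14% at ID8 (n = 3) and 22.6 ± 2.43% at REG (n = 4). The ID2 livers did not overlap LAC and overlapped NUL through a single NUL animal (NUL_220). For each pair, the ratio of the immunoproteasome gene to the gene it replaces was lowest in LAC. Psmb9 per Psmb6 was 0.0493 ± 0.0042 in LAC (n = 3) and 0.0944 ± 0.0112 at ID2 (n = 3), Psmb10 per Psmb7 0.269 ± 0.0230 and 0.467 ± 0.0892, and Psmb8 per Psmb5 0.370 ± 0.0244 and 0.739 ± 0.0770. In every stage, mRNA of the constitutive subunit was more abundant on average than that of its replacement. These shares are of RNA and were not tested.

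**Figure D3:**
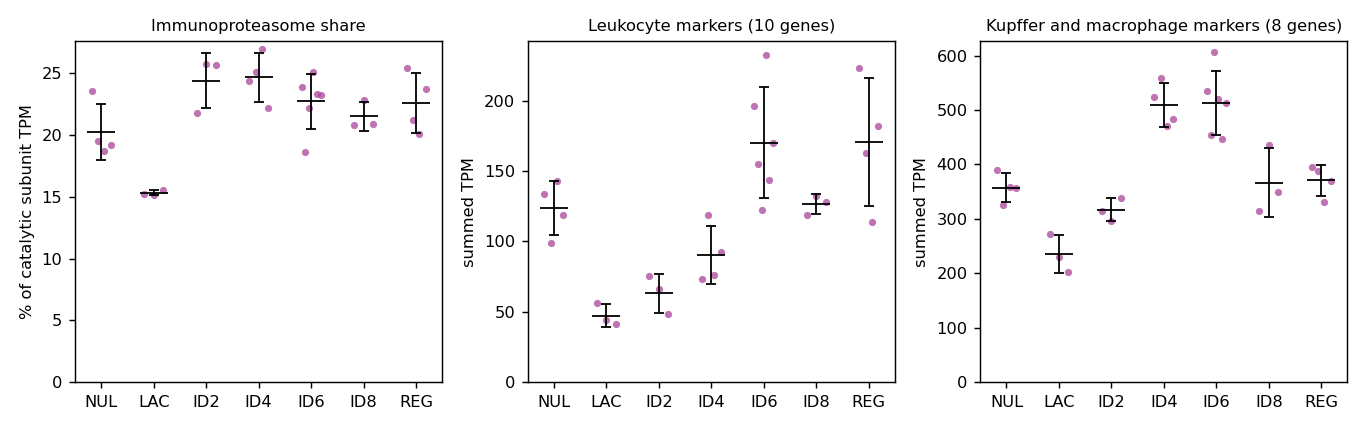
Share of the summed TPM of the 6 catalytic genes held by Psmb8, Psmb9 and Psmb10 (left, percent), and summed TPM of 10 leukocyte markers (middle) and 8 Kupffer cell and macrophage markers (right), 1 point per animal with stage mean and SD. All 3 measures are lowest on average in LAC, but at ID2 the share exceeds that of NUL on average while the leukocyte markers lie below NUL.

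Markers of other liver cell types moved with these genes in some comparisons and not in others. Leukocyte markers (Ptprc, Cd3e, Cd74 and 7 others) had summed TPM of 99.0 to 143 in NUL, 41.3 to 56.2 in LAC, 48.1 to 75.2 at ID2, 73.6 to 119 at ID4, 122 to 233 at ID6, 119 to 132 at ID8 and 114 to 223 at REG. At ID2 they were thus below every NUL liver, while Psmb9 stood at 21.3 or more in each ID2 liver and at 14.5 to 23.0 CPM in NUL. Kupffer cell and macrophage markers (Clec4f, Adgre1, Csf1r and 5 others) ran from 325 to 390 in NUL, 202 to 273 in LAC, 297 to 339 at ID2, 470 to 559 at ID4, 447 to 606 at ID6, 314 to 436 at ID8 and 331 to 395 at REG. In LAC against NUL, 5 of 10 leukocyte and 6 of 8 macrophage markers were called lower (edgeR). At ID2 against LAC, 1 of 10 and 5 of 8 were called higher, at ID4 against NUL 0 of 10 and 6 of 8, and at ID6 against NUL, where no immunoproteasome gene was called, 0 of 10 and 5 of 8. Hepatocyte markers had their highest summed TPM in LAC, with 75200 to 95700 in NUL, 130000 to 151000 in LAC and 104000 to 105000 at ID2, no overlap between these stages, and 67600 to 77400 at ID4. Of 8 hepatocyte markers, 2 were called higher and 1 lower in LAC against NUL, and 2 higher and 1 lower at ID2 against LAC. Their median log2 fold change against NUL was 0.15 in LAC and 0.35 at ID2, so the order of the sums is not that of the typical marker. Endothelial, stellate cell and bile duct markers also had lower summed TPM in every LAC liver than in any NUL or ID2 liver. Endothelial markers ran from 145 to 156 in NUL, 112 to 125 in LAC and 143 to 146 at ID2, and 0 of 6 were called in LAC against NUL and 3 of 6 higher at ID2 against LAC. Stellate markers ran from 125 to 148 in NUL and 83.9 to 94.6 in LAC, with a median of 107 at ID2. Bile duct markers ran from 32.9 to 47.7 in NUL, 19.4 to 26.7 in LAC and 28.4 to 37.7 at ID2. Of each of these 2 lists, 2 of 5 were called lower in LAC against NUL and 1 of 5 higher at ID2 against LAC. No marker of these 6 lists was at 0 throughout a stage. Their part in the immunoproteasome results was not tested.

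Animals of a stage that were high in one immunoproteasome gene tended to be high in the others. On deviations of log2 CPM from the stage mean over 27 animals, permuted within stages, Psmb8 and Psmb9 had r = 0.729 and rho = 0.75 (permutation p = 0.00126, adjusted over 6 relations 0.00378). Psmb8 and Psmb10 had r = 0.663 and rho = 0.606 (permutation p = 0.00097, adjusted 0.00378), and Psmb9 and Psmb10 r = 0.615 and rho = 0.56 (permutation p = 0.00422, adjusted 0.00844). Without the 2 animals farthest from the median in the first gene of each pair, r was 0.784, 0.565 and 0.595 in the same order. Pairs of a constitutive gene and its replacement did not pass the threshold after adjustment. Their r was 0.456 for Psmb5 and Psmb8 (rho 0.451, permutation p = 0.0514, adjusted 0.0771; r without 2 animals 0.501), 0.381 for Psmb7 and Psmb10 (rho 0.453, p = 0.0793, adjusted 0.0952; 0.417) and 0.222 for Psmb6 and Psmb9 (rho 0.278, p = 0.368, adjusted 0.368; 0.264). Values of 1 library share its scaling.

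The constitutive catalytic subunits themselves were called in no comparison of the fit to all libraries. Psmb6 CPM was 124 ± 6.84 in NUL (SD, n = 4), 127 ± 7.75 in LAC (n = 3), 119 ± 9.08 at ID2 (n = 3) and 126 ± 10.3 at ID4 (n = 4), with every stage overlapping every other. Psmb7, the trypsin-like site, had a lowest stage mean of 117 ± 7.67 CPM at ID2 and a highest of 134 ± 11.6 at ID4. Psmb5, the chymotrypsin-like site, stood at 55.5, 63.1 and 66.0 CPM in LAC and 47.8, 49.9 and 50.3 at ID2. The LAC and ID2 livers did not overlap for Psmb5, but the difference (log2 fold change -0.32, SE 0.12, edgeR adjusted p = 0.0735) was not called. A fit of the LAC and ID2 libraries alone called it lower, with Psmd4 and Psme3, and lost Psmd11 (edgeR adjusted p = 0.0653).

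Outside the immunoproteasome, most members were lower at ID2 than in LAC by small amounts. In that comparison 36 of the 42 other members had negative log2 fold changes, with a median of -0.14 over the 42, -0.12 over all 45 and 0.02 over all genes. All 7 beta ring genes, all 6 ATPases and all 11 non-ATPases were negative, as were 5 of 7 alpha ring genes. On log2(TPM + 1) the beta ring and the non-ATPases were again all negative, as were 5 of 6 ATPases and 5 of 7 alpha ring genes. With the number range in the model, 6 of 7 beta ring genes, 11 of 11 non-ATPases, 5 of 6 ATPases and 4 of 7 alpha ring genes were negative, and the median moved from -0.09 to -0.05 (log2) over the beta ring and from -0.09 to -0.01 over the alpha ring. Of the 42, 4 were called lower, a share near the 7.64% of all genes called lower.

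**Figure D4:**
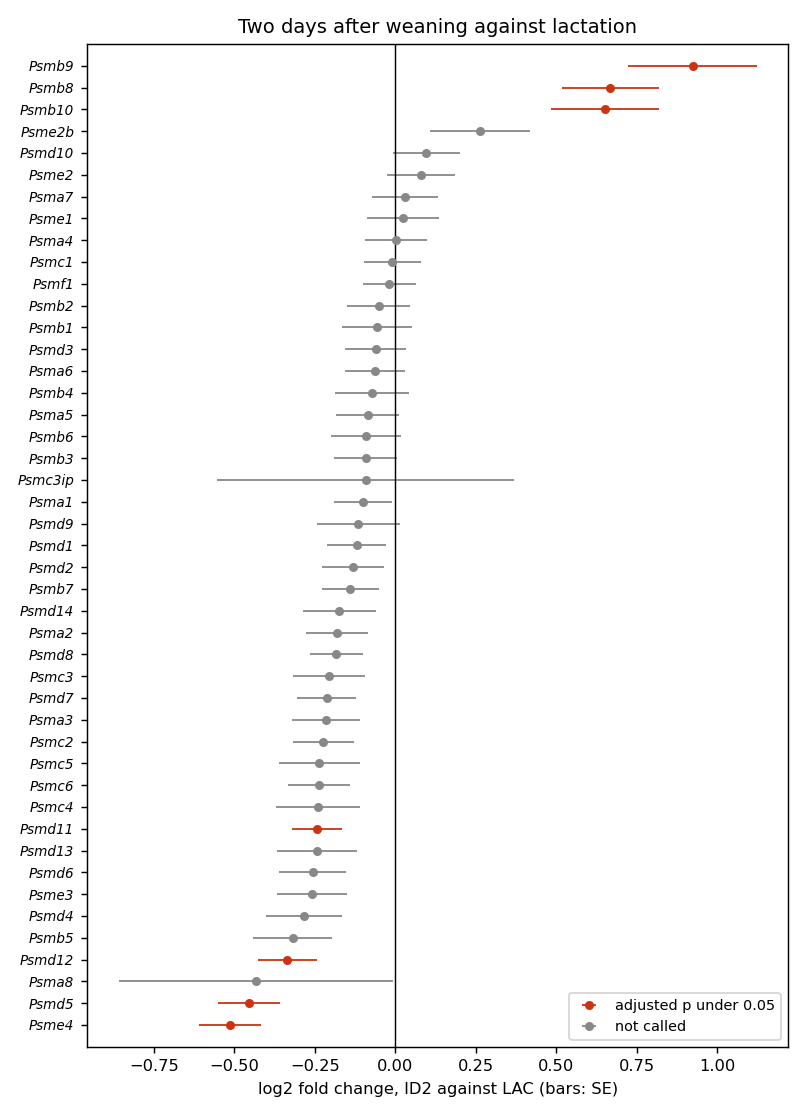
Log2 fold change at ID2 against LAC of the 45 members tested, sorted, with bars for the SE; red points have an edgeR adjusted p under 0.05. Psmb9, Psmb8 and Psmb10 stand at the top, from 0.65 to 0.92, and the called members below 0 are Psme4, Psmd5, Psmd12 and Psmd11.

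Psme4, a large activator that caps the core without ATP and is known for work on acetylated histones, fell most. It stood at 82.1, 85.7, 88.7 and 99.4 CPM in NUL, 108, 109 and 115 in LAC, 75.1, 77.1 and 79.8 at ID2 and 76.7, 84.7, 89.0 and 91.1 at ID4. It ranged over 85.4 to 105 (median 91.5) CPM at ID6, with 79.0, 79.3 and 86.0 at ID8 and 74.8, 76.7, 90.5 and 91.1 at REG. On CPM the 3 LAC livers were the highest of all 27, and the ID2 livers lay below all NUL and LAC livers. On TPM the LAC livers stood at 19.8, 20.5 and 20.9, overlapping NUL (NUL_227, 20.8) and below ID6_232 (22.3) and ID6_209 (22.6). The log2 fold change was -0.51 at ID2 against LAC (SE 0.10, edgeR adjusted p = 0.000621), and none of 6 single-animal omissions or 8 other settings removed the call. In LAC against NUL it was 0.31 (SE 0.09, edgeR adjusted p = 0.0205).

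Psmd5 is a chaperone that helps assemble the base of the regulatory particle and is not part of the finished one. Like Psme4, it had its highest stage mean of CPM in LAC and its lowest at ID2. It stood at 35.8, 41.1, 41.7 and 44.5 CPM in NUL, 46.7, 50.1 and 51.5 in LAC and 35.5, 35.9 and 36.9 at ID2. Its CPM was 37.1, 39.01, 39.2 and 39.2 at ID4, 38.2, 42.0 and 46.8 at ID8 and 34.8, 39.7, 41.4 and 45.6 at REG, and ranged over 38.0 to 46.6 (median 42.6) at ID6. On CPM, LAC overlapped neither NUL nor ID2, and ID2 overlapped NUL through NUL_226. On TPM, LAC and NUL overlapped (LAC_240 18.8, NUL_221 20.8). The log2 fold change was -0.45 at ID2 against LAC (SE 0.10, edgeR adjusted p = 0.00208) and 0.28 in LAC against NUL (SE 0.09, edgeR adjusted p = 0.042). At ID2 against LAC the call was lost on log2(TPM + 1) (limma adjusted p = 0.0651).

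**Figure D5:**
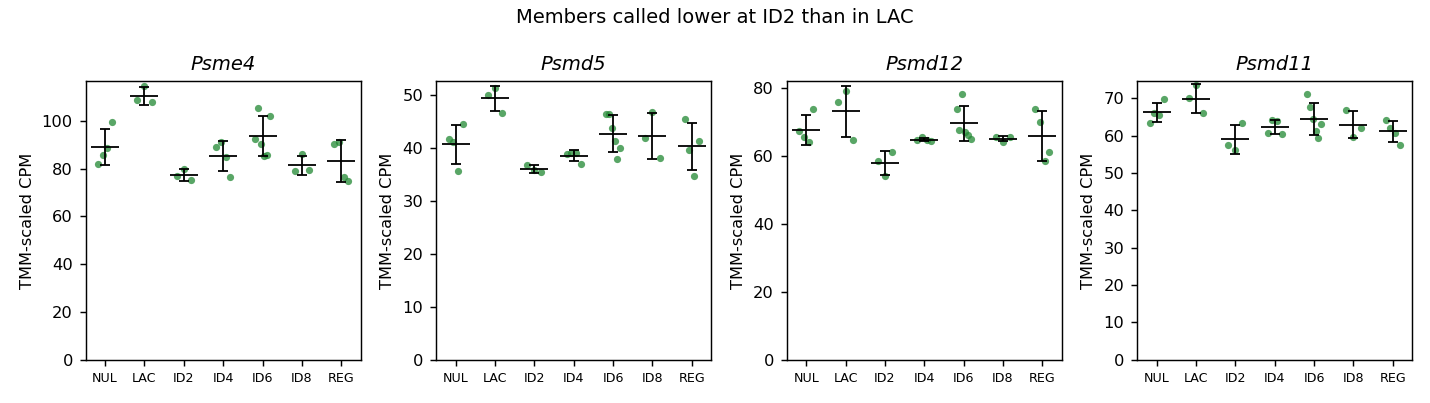
TMM-scaled CPM of the 4 members called lower at ID2 than in LAC, 1 point per animal, with stage mean and SD in black. Psme4 and Psmd5 are highest in LAC without overlap with NUL or ID2, while Psmd12 and Psmd11 overlap between LAC and NUL.

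Psme4 and Psmd5 were the only members called in LAC against NUL, both higher, where 11.2% of all genes were called and 5.19% were called higher. The calls were sensitive to leaving out 1 animal, with log2 fold changes of 0.27 to 0.37 for Psme4 and 0.22 to 0.32 for Psmd5 in those fits. Psme4 lost its call without LAC_200 (edgeR adjusted p = 0.0513), LAC_213 (0.0967) or NUL_220 (0.0689) and on log2(TPM + 1), where the difference was 0.19 (limma adjusted p = 0.324). Psmd5 lost its call in 6 of 7 fits without 1 animal, that without NUL_227 being the exception, with edgeR adjusted p from 0.0546 (without LAC_240) to 0.162 (without LAC_213). It also lost it with no filter on low counts (edgeR adjusted p = 0.0893), in the fit of these 2 groups alone (0.0733) and on both TPM scales (limma adjusted p = 0.243 on log2(TPM + 1)). Over all members, 32 of 45 had positive log2 fold changes in LAC on counts, but 16 of 45 on log2(TPM + 1), where 36.0% of all genes were positive against 48.5% on counts. The direction of the members as a group in LAC against NUL therefore depends on the scale.

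Psmd12 and Psmd11, scaffold subunits of the lid, were the other members called lower at ID2 than in LAC. Psmd12 stood at 64.1, 65.6, 67.4 and 74.02 CPM in NUL, 64.7, 75.9 and 79.1 in LAC, 54.3, 58.6 and 61.4 at ID2 and 64.5, 64.7, 64.7 and 65.6 at ID4. The ID2 livers were below all NUL, LAC and ID4 livers (log2 fold change against LAC -0.34, SE 0.09, edgeR adjusted p = 0.0128). Psmd11 stood at 63.5, 65.6, 66.1 and 69.8 CPM in NUL, 66.0, 70.0 and 73.6 in LAC and 56.1, 57.5 and 63.4 at ID2. LAC and ID2 did not overlap (log2 fold change -0.24, SE 0.08, edgeR adjusted p = 0.0296). Psmd12 lost its call without ID2_31 (edgeR adjusted p = 0.0737), LAC_200 (0.0516) or LAC_213 (0.089), and Psmd11 without ID2_224 (0.103), ID2_31 (0.133), LAC_200 (0.0729) or LAC_213 (0.145). ID2_31 is the library with the most pancreas transcripts. With the number range in the model neither was called (0.0603 and 0.0811). Without LAC_240 the ATPase Psmc6 was called lower as well.

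Among the activators, the interferon-inducible pair Psme1 and Psme2, which form a cap that opens the core, were not called at weaning. Psme1 CPM was 63.5 ± 2.32 in LAC (SD, n = 3) and 64.6 ± 4.25 at ID2 (n = 3), a difference of 0.02 on the log2 scale (SE 0.11, edgeR adjusted p = 0.913). Psme2 CPM was 79.8 ± 5.75 and 84.5 ± 3.74, a difference of 0.08 (SE 0.11, edgeR adjusted p = 0.658). Both genes lie on chromosome 14, Psme1 at 55578123 to 55581529 and Psme2 at 55587441 to 55591113. Psme3, which forms the related nuclear cap, ran from 51.6 ± 3.02 CPM at ID8 (n = 3) to 64.5 ± 2.81 in LAC (n = 3) and was not called. Psmf1, an inhibitor of the core, was among the steadier members, with a range of 0.12 between stage means (log2).

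The germline subunit Psma8 had stage means from 0.843 to 1.36 CPM, and Psmc3ip from 0.281 to 0.492. Their ranges between stages (0.69 and 0.81, log2 CPM) came with SDs between animals of 0.579 and 0.562, and neither was called. Psmd10, an assembly chaperone also known as the oncoprotein gankyrin, ranged by 0.13 between stages.

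The remaining 8 comparisons called 0 of 45 members with edgeR, and DESeq2 also called 0 in each. At ID2 against NUL, 6 members had an unadjusted p under 0.05 (16.9% of all genes had one, and 3.24% were called), and the smallest belonged to Psmd12 (-0.22, edgeR adjusted p = 0.161) and Psmd11 (-0.17, 0.224). All 7 alpha ring genes, 7 beta ring genes, 6 ATPases and 11 non-ATPases were negative there, on counts and on log2(TPM + 1), where 47.4% and 38.9% of all genes were positive. With the number range in the model, 1 alpha ring gene, 2 beta ring genes and 1 ATPase were positive, and the median over members moved from -0.08 to -0.04 on the log2 scale. An unadjusted p under 0.05 was found for 17 members on log2(TPM + 1) (limma) and 3 with the number range (edgeR). In both settings 0 members were called, where 2.12% and 0.657% of all genes were called. At ID4 against ID2, 5 members had an unadjusted p under 0.05 (13.9% of all genes, 1.49% called). They were Psmb7 (0.20, edgeR adjusted p = 0.247), Psmd4 (0.26, 0.273), Psmc3, Psmd6 and Psma7, all positive. In that comparison 41 of 45 members were positive on counts and 40 on log2(TPM + 1), with a median of 0.10 on counts. Of all genes, 49.4% and 46.6% were positive. There 7 of 8 Kupffer cell and macrophage markers were called higher and 2 of 8 hepatocyte markers lower (edgeR), and no other marker list held a call. Their part in this shift was not tested.

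From ID4 to ID8 the share of members called was again below that of all genes. The ID6 and ID8 livers stood apart in erythroid markers (4 globin genes and Alas2), with summed TPM of 197 to 847 at ID6 and 51.9 to 107 at ID8, against 1140 to 3820 over the other stages. All 5 were called lower at ID6 against ID4 and 4 of 5 at ID8 against ID6 (edgeR), and their part in the results on these stages was not tested. At ID6 against ID4, 3 members had an unadjusted p under 0.05 (22.9% of all genes, 8.53% called), namely Psmb9 (-0.39, edgeR adjusted p = 0.123), Psmc3ip (-0.80, 0.175) and Psmd9 (-0.23, 0.177). Without ID6_218, the ID6 liver with the highest Psmb9, Psmb9 was called lower (-0.52, edgeR adjusted p = 0.0179). With sequencing runs in the model it was called as well (0.0465). On log2(TPM + 1), limma called Psma2, Psmd12 and Psme1 higher at ID6, where 10.1% of all genes were called on that scale. There 37 of 45 members were positive against 16 on counts, and of all genes 70.2% against 52.2%.

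At ID8 against ID6, 2 members had an unadjusted p under 0.05 (20.5% of all genes, 4.12% called). They were Psmd9, a base chaperone (0.31, edgeR adjusted p = 0.101), and Psme4 (-0.20, 0.164). Psmd9 stood at 19.2, 27.5 and 34.5 CPM at ID8, and without its lowest animal, ID8_14, it was called higher (0.51, edgeR adjusted p = 0.00385). At ID8 against ID6, 20 of 45 members were positive on counts and 5 on log2(TPM + 1), and of all genes 50.1% and 32.8%. On log2(TPM + 1), 12 members had an unadjusted limma p under 0.05 and 0 were called, where 5.22% of all genes were called.

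No member was called against NUL at ID6, ID8 or REG, nor at REG against ID8. At ID6 against NUL, 2 members had an unadjusted p under 0.05 (11.9% of all genes, 1.08% called), Psmb8 (0.31, edgeR adjusted p = 0.252) and Psme1 (0.22, 0.29). At ID8 against NUL 0 members had one (12.8% of all genes, 0.499% called), the nearest being Psme3 (-0.19, edgeR adjusted p = 0.443) and Psma6 (0.15, 0.501). At REG against NUL 1 member had one, Psme1 (0.21, edgeR adjusted p = 0.66), followed by Psmd14 (-0.18, 0.771), where 7.17% of all genes had one and 0.0852% were called. At REG against ID8 0 members had one (9.02% of all genes, 0.0487% called), the nearest being Psme3 (0.19, edgeR adjusted p = 0.601) and Psmc6 (-0.15, 0.662). A p above the threshold does not show that levels were equal, and the SE of the members' log2 fold changes in these 4 comparisons had a median of 0.0909 (0.0604 to 0.434).

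Other genes of the pathway were read from lists of 50 genes, all of which were tested. At ID2 against LAC, 10 were called higher and 5 lower (edgeR; 16.1% of all genes were called), and in LAC against NUL 2 higher and 2 lower (11.2% of all genes). Among 8 genes that supply class I peptides, 3 were higher at ID2 than in LAC, namely Tap2 (log2 fold change 0.38), Tapbp (0.42) and the class I transactivator Nlrc5 (0.70). Tap1, between Psmb9 and Psmb8, missed the threshold (0.59, edgeR adjusted p = 0.053). Among 9 interferon response genes, 5 were higher at ID2 than in LAC, namely Gbp2 (1.57), Ifit1 (1.06), Ifit3 (0.94), Irf8 (0.62) and Irf9 (0.51). All 9 were positive, and Gbp2, a guanylate-binding protein, was also lower in LAC than in NUL (-1.13). Gbp2 CPM was 8.82 ± 2.52 in NUL (SD, n = 4), 4.04 ± 0.586 in LAC (n = 3) and from 11.2 to 13.1 at ID2.

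The other lists also held calls at ID2 against LAC, where 16.1% of all genes were called and 7.64% were called lower. Of 2 subunits outside the Psm symbols, the ubiquitin receptor Adrm1 was lower (-0.32). Of 4 proteins that bind the particle, the deubiquitinase Uchl5, which Adrm1 holds, was lower (-0.48), as was the adaptor Ecpas (-0.21). Of 11 ubiquitin activation and delivery genes, the shuttle Ubqln1 was lower (-0.40). None of 5 further assembly chaperones and none of 4 ubiquitin genes was called in either comparison. Among 7 genes of transcriptional control, Nfe2l2 was higher in LAC than in NUL (0.38, edgeR adjusted p = 0.0253) and lower at ID2 than in LAC (-0.66, 0.000614). Ddi2, the protease that activates Nfe2l1, went the other way, at -0.44 (edgeR adjusted p = 0.00485) and 0.53 (0.00133). The small Maf partners were higher in LAC than in NUL for Mafk (0.49) and at ID2 than in LAC for Mafg (0.49). Nfe2l1 itself was not called (-0.24 in LAC against NUL, edgeR adjusted p = 0.149, and 0.05 at ID2 against LAC, 0.825).

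At the other stages, 5 of the 50 pathway genes were called higher at ID4 against NUL (4.25% of all genes were called in either direction), 2 higher at ID2 against NUL (3.24%) and 1 higher at ID4 against ID2 (1.49%). At ID6 against ID4, where 8.53% of all genes were called, 1 was higher and 8 were lower, of which 3 were from the interferon list, 3 from transcriptional control (Mafk, Mafg and Ddi2), 1 from the class I list and 1 from the ubiquitin genes (Ubb). At ID8 against ID6, REG against ID8 and the comparisons of ID6, ID8 and REG with NUL, 0 were called.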

How the data were processed

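RNA from whole livers of 27 mice was sequenced in bulk, 1 library per animal, 16 libraries in 2 runs and 11 in 1. Per the submitters' processing notes, STAR 2.6.1a, RSEM 1.3.1 and the mm10 or GRCm38 genome were used. The annotation, trimming and use of strand are not given in the sources used here. The expected count per gene was estimated by the authors and is not normalised between libraries, per the file headers. TPM is the authors' deposited length-scaled value, and the deposited effective length was read only as a description. Symbols and positions came from GENCODE M21 on GRCm38, which held 51633 of 51826 identifiers.

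The members, lists, tests and naming rule were chosen with earlier results of these data known. Groups came from the sample titles. All pairs of libraries of a group differed beyond sampling noise (smallest chi-square per gene 42.7). Expected counts were rounded and fitted in R 4.3.3 with edgeR 4.0.16 (filterByExpr with a minimum count of 10, which kept 16428 genes and at least 99.9783% of the counts, TMM, robust quasi-likelihood). All 27 libraries entered 1 fit with 20 residual degrees of freedom (common dispersion 0.036, biological coefficient of variation 0.19), and the steps were tested on simulated data. Contrasts set every stage against NUL and against its predecessor, and a joint test covered all 7, with two-sided tests and Benjamini-Hochberg adjustment over all genes at 0.05. The SE of an edgeR log2 fold change was derived as its absolute value divided by the square root of the F statistic. CPM is the TMM-normalised count, put on one common total for all libraries. Relations between animals used 100000 permutations within stages.

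Named were the 6 catalytic genes, the members called in a comparison (up to 4 in each direction, otherwise the 2 with the smallest p), the 6 with the smallest joint p, the 3 farthest from the median member and those failing the filter. Pathway genes were named where called in LAC against NUL or ID2 against LAC. Other members described (Psme2, Psme2b, Psmf1, Psma8, Psmd10, those at the ends of a range, Psmc3, Psmd6 and Psma7 at ID4 against ID2, Psmd9 at ID6 against ID4 and those gained under an alternative), Tap1, Nfe2l1 and the pathway genes named at ID6 against ID4 were chosen after their values were seen. Alternatives were DESeq2 1.42.0, other size factors, no filter, limma 3.58.1 on log2(TPM + 1) and log2(TPM + 0.1), only the groups compared, covariates for title number and runs, and leaving out each animal. The p-values measure the spread between the animals sampled.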

Additional observations from a re-analysis of the deposited data

Results flagged for a closer look

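In 76 tests of groups of 4 or 6 animals, 6 groups held 1 animal far from the rest; chance alone gives such a flag in about 1 of 20 groups. Psmb10 stood at 38.19 CPM in ID4_13 and at 49.89 to 51.15 in the other ID4 livers. Psmb5 stood at 67.86 CPM in ID4_215, against 50.99 to 53.79 in the others of that stage. In the same liver Psmd5 was 37.1 CPM, against 39.01 to 39.2. Psmd12 was 65.58 CPM in ID4_15 and 64.53 to 64.69 in the other ID4 livers, a gap that is small in absolute terms. Psmb8 was 49.91 CPM in NUL_220, against 39.3 to 40.89 in the other NUL livers, and the immunoproteasome share of catalytic TPM in that liver was 23.59%, against 18.7% to 19.53%.

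Outside the members, the pseudogene Psmb7-ps2 had a highest count of 8 in a library, with a median of 1, and the sources of these reads were not tested.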

How the results depend on the processing

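The named members kept direction in all 402 alternative values computed for the comparisons that named them. Of these, 366 stayed on the same side of the threshold, 33 lost a call and 3 gained one. Only results called in the main fit could lose a call, and most named results were not called there. The 33 of 402 therefore understates how often calls were lost. Counts of called members stayed within 1.5 times under 187 alternatives and moved under 21. For the 7 stages, log2(TPM + 1) gave 10 and log2(TPM + 0.1) 10, and leaving out 1 animal gave 3 to 6. In LAC against NUL, no filter gave 1 and only the groups compared 1, and leaving out 1 animal 0 (LAC_200, LAC_213 or NUL_220) to 3. At ID4 against NUL, the title number covariate gave 0, and leaving out 1 animal 0 (NUL_226 or NUL_227) to 2 (NUL_220). At ID2 against LAC, the title number covariate gave 4, and leaving out 1 animal 5 to 8. At ID6 against ID4, log2(TPM + 1) gave 3, log2(TPM + 0.1) 3 and the sequencing runs covariate 1, and leaving out 1 animal 0 to 1 (ID6_218). At ID8 against ID6, leaving out 1 animal gave 0 to 1 (ID8_14). The cause was not tested. No paired analysis was possible because no title number recurs between groups. The precision is that of groups of 3 to 6 animals, and the effect of depth was not tested.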
